A study of Homo sapiens with 12 samples.

Results

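The dexamethasone responses of 2 human basal-like breast cancer cell lines, HCC70 and MDA-MB-231, were set against each other gene by gene. The quantity throughout is the difference of responses: the log2 fold change of dexamethasone over vehicle in HCC70 minus the same fold change in MDA-MB-231. A positive difference means that the response was more positive in HCC70, and a negative one that it was more positive in MDA-MB-231. A gene was included where its mean level was at least 1 CPM (TMM-scaled reads per 1000000 reads) in at least 1 group of each line, so that both responses were measured. A gene below this level in 1 group of a line could enter through the other group alone, which favours genes that change strongly there. Examples are FJX1, LFNG, IL11 and PDK4 in HCC70 and CXCL2, CD109, MT1X and SCNN1G in MDA-MB-231, which entered through the treated group. CX3CL1 and CITED4 entered in MDA-MB-231 through the vehicle group. This rule took 15134 genes of 28141 tested and of 51838 in the table, and 11410 of them are protein coding. Both lines were treated for 4 h with 100 nM dexamethasone or with an equal volume of ethanol, with 3 libraries per line and treatment and 12 in all. The groups are HCC70 in ethanol, HCC70 in dexamethasone, MDA-MB-231 in ethanol and MDA-MB-231 in dexamethasone, with no other agent or allele. The lines were grown in different media, RPMI for HCC70 and DMEM for MDA-MB-231, and the effects of line and medium cannot be told apart. The stated purpose of the study was to find genes controlled by the glucocorticoid receptor and by STAT3. Whether replicates were separate cultures is not stated, and the p-values therefore rest on a spread between libraries that may be technical.

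Dexamethasone is a synthetic glucocorticoid that binds the glucocorticoid receptor, the product of NR3C1. The bound receptor enters the nucleus, where it switches on genes next to its DNA elements and dampens genes driven by other factors, among them AP-1 and NF-kB. Which genes respond is known to vary between cell types. In breast cancer of the basal-like kind the receptor is known for cell survival signals and for effects on cell adhesion and movement.

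Total counts were 106345287 to 123218973 per library, and the limit that a count of 0 allows (3 counts in a group) was 0.00827 to 0.00861 CPM, for counting error only. All 10 basal epithelial markers reached 1 CPM in HCC70, with a summed level of 4380 to 4790 CPM in vehicle, and 7 of 10 did so in MDA-MB-231, with 429 to 497 CPM. In vehicle the epithelial cadherin gene CDH1 stood at 508 CPM in HCC70 and 2.37 CPM in MDA-MB-231, and the mesenchymal filament gene VIM at 142 and 2300 CPM. Of 7 leukocyte markers 2 reached 1 CPM in HCC70 and 1 in MDA-MB-231, with summed levels of 56.5 to 60.6 and 64.4 to 72.3 CPM in vehicle, made up by CD68 in both lines and CD14 in HCC70; MS4A1 was at 0 in both lines, and PTPRC and CD3E were below 1 CPM in all groups. Of 5 fibroblast and pericyte markers 2 reached 1 CPM in HCC70 (COL1A1 and RGS5) and 3 in MDA-MB-231 (these and PDGFRB). Their sum went from 67.3 to 76.3 CPM in vehicle to 90.6 to 101.0 CPM in dexamethasone in HCC70 and from 26.2 to 41.9 CPM to 16.9 to 23.0 CPM in MDA-MB-231, with DCN and LUM below 1 CPM in all groups; their part in the results was not tested. The summed endothelial markers stood at 2.60 to 3.29 CPM in MDA-MB-231 vehicle and at 21.3 to 25.3 CPM in dexamethasone through KDR, with VWF and CDH5 below 1 CPM. Mitochondrial genes held 3.47% to 3.83% of counts in HCC70 vehicle and 2.73% to 2.82% in dexamethasone. Histone genes held 0.0237% to 0.0254% and 0.018% to 0.0189%. In MDA-MB-231 both shares overlapped between treatments (mitochondrial 2.5% to 3.89% and 3.02% to 3.65%). The part of these shares in the results was not tested. Vehicle replicate 1 and dexamethasone replicate 2 of MDA-MB-231 stood apart together: their deviations from their group means correlated at 0.548 over genes. Leaving out both moved the counts of differing, changed and oppositely changed genes by over 1.5 times, and the values without them follow each of these counts.

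The 2 lines answered dexamethasone differently in 2785 of the 15134 genes (18.4%, against 12.1% of all genes tested). Calls are from edgeR's quasi-likelihood test with Benjamini-Hochberg adjustment over all 28141 genes and a threshold of 0.05. The response was more positive in HCC70 for 1589 genes (10.5%, against 6.96% of all genes tested) and in MDA-MB-231 for 1196 (7.9%, against 5.09%). A difference of at least 2-fold was reached by 537 of them (3.55%, against 3.62%), 397 more positive in HCC70 (2.62%, against 2.46%) and 140 in MDA-MB-231 (0.925%, against 1.17%). Within the lines, 544 of the 15134 genes rose in HCC70 (3.59%, against 2.55% of all genes tested) and 303 fell (2.0%, against 1.4%). In MDA-MB-231 1376 rose (9.09%, against 6.65%) and 1657 fell (10.9%, against 7.96%). Rises and falls together came to 847 in HCC70 and 3033 in MDA-MB-231, and to 3216 and 4752 without both MDA-MB-231 libraries that stood apart. Without both of those libraries 5391 genes differed, 3083 more positive in HCC70 and 2308 in MDA-MB-231, and 775 differed by 2-fold or more (624 and 151). Leaving out 1 library gave 1329 (HCC70 vehicle replicate 1) to 5325 (MDA-MB-231 dexamethasone replicate 2), and leaving out MDA-MB-231 vehicle replicate 3 gave 4905.

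The differences came from several kinds of response. Among genes more positive in HCC70, the largest class fell in MDA-MB-231 and did not pass in HCC70, with 922 genes, 232 of them at 2-fold or more. The 232 became 82 with the offset for GC content and length described next, 136 and 153 without dexamethasone replicates 1 and 3 of MDA-MB-231, 106 without vehicle replicate 1 of that line, 745 without its dexamethasone replicate 2 and 586 without its vehicle replicate 3. Without both libraries that stood apart it was 184, fewer than the 396 genes at 2-fold or more that rose in HCC70 and fell in MDA-MB-231, while the class as a whole held 1158 genes. Among genes more positive in MDA-MB-231, the largest class rose in that line and did not pass in HCC70, with 697 genes, 91 of them at 2-fold or more. Over the 25 alternative settings the 922 ranged from 463 to 2084 and the 697 from 345 to 1519, and each remained the largest class of its direction, except that with library size alone more genes toward MDA-MB-231 passed in neither line (1055). Another 159 genes rose in HCC70 and did not pass in MDA-MB-231, and 72 fell in HCC70 and did not pass in MDA-MB-231. For 354 genes more positive in HCC70 and 326 more positive in MDA-MB-231, neither line passed on its own. The fit shared 1 estimate of each gene's spread over all groups. Library deviations from the group mean were 0.133 to 0.153 on the log2 scale (root mean square) in HCC70. They were 0.152 to 0.23 in MDA-MB-231. With group weights in voom 2231 genes changed in HCC70, against 847. A gene that did not pass in HCC70 is therefore not shown to lack a response there. Among the 199 genes that rose in both lines, the median log2 change was 0.589 in HCC70 and 0.892 in MDA-MB-231. Of these, 71 rose further in MDA-MB-231 by the test of the difference and 11 rose further in HCC70. Among the 117 that fell in both lines, the medians were -0.381 and -0.533, and 30 fell further in MDA-MB-231 against 2 in HCC70. The median difference over all 15134 genes was -0.0282. Across those 15134 genes Spearman's correlation of the responses was -0.308 (-0.0701 with the offset for GC content and length described next), and across the 457 genes that passed in both lines it was 0.426. Genes are not independent replicates, and the lines share no control library.

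**Figure D1:**
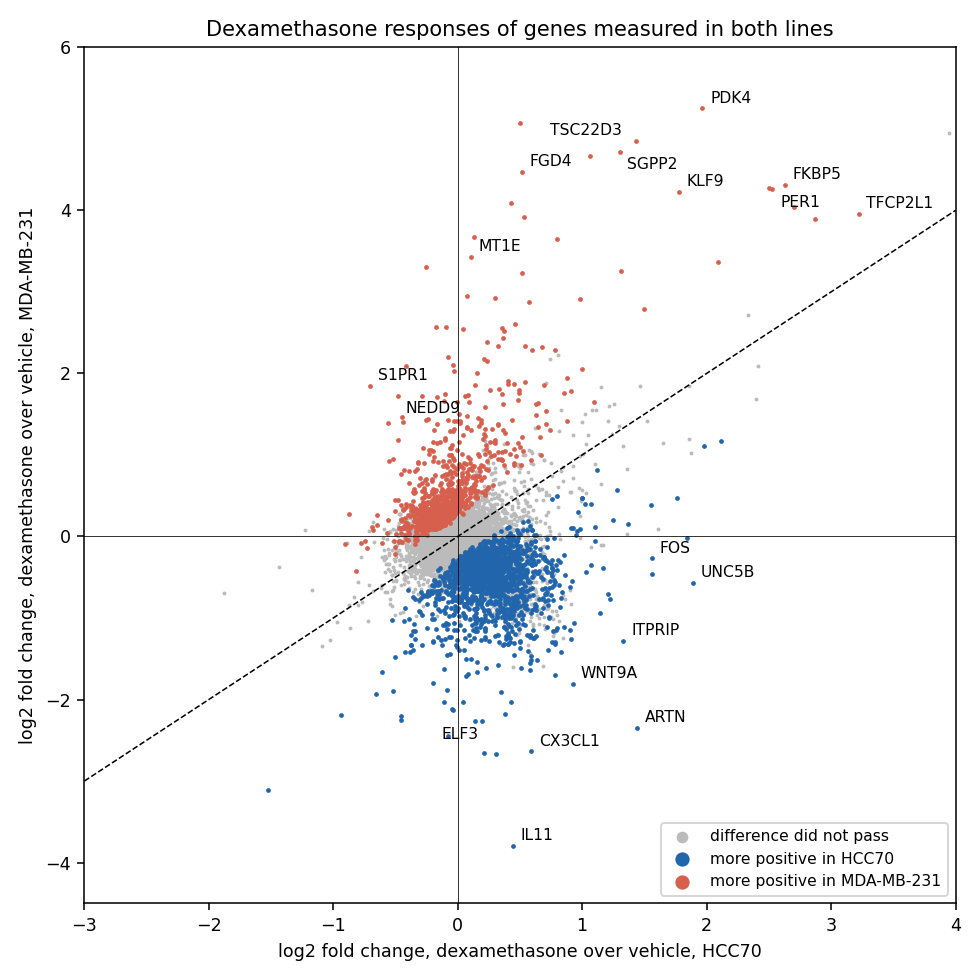
Each point is a gene measured in both lines, with its log2 fold change in HCC70 on the horizontal axis and in MDA-MB-231 on the vertical axis; 15133 of 15134 genes lie within the axes and SCNN1G lies outside. Blue points responded more positively in HCC70 (1589 genes), red points in MDA-MB-231 (1196 genes), grey points did not pass, and the dashed line marks equal responses.

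The GC content of the transcripts moved with the differences. Over 14232 genes with a known GC content, Spearman's rho of the difference with GC was 0.55, made of 0.509 for the response in HCC70 and -0.456 for that in MDA-MB-231. The genes share these libraries, so rho is a description. In the 3558 genes with the highest GC (56.3% to 81.0%) the median difference was 0.445, with 833 genes more positive in HCC70 and 64 in MDA-MB-231. In the 3558 with the lowest (23.1% to 42.2%) it was -0.159, with 79 and 415. The GC trend also ran through single libraries: in HCC70 rho between GC and a library's deviation from the line's mean was -0.567 to -0.134 in vehicle and 0.324 to 0.469 in dexamethasone. In MDA-MB-231 it was -0.202 to 0.644 in vehicle and -0.497 to 0.239 in dexamethasone, so the ranges overlapped there. An offset per library that removes trends with GC and length brought rho to -0.0148. The offset was fitted to deviations from the line's mean, which hold the response too. The offset can therefore also remove a part of the response that runs with GC or length. It gave 3507 differing genes, 1274 more positive in HCC70 and 2233 in MDA-MB-231, the reverse of the split without it.

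Calls of large differences were kept with that offset more often than calls of small ones. A large difference passes more easily, so the shares kept do not measure dependence on the offset. Of the 537 genes with a difference of 2-fold or more, 498 also passed with the offset (92.7%), among them 358 of the 397 more positive in HCC70 and 140 of the 140 more positive in MDA-MB-231. Of the 2248 differing genes under 2-fold, 1482 did (65.9%). With the offset 175 genes were more positive in HCC70 by 2-fold or more and 189 in MDA-MB-231, against 397 and 140 without it. Leaving out any single library kept 137 to 140 of the 140 large differences toward MDA-MB-231. Of the 397 toward HCC70 it kept 260 (without HCC70 vehicle replicate 1) to 397, with 267 kept without MDA-MB-231 dexamethasone replicate 3. Scaling by library size alone moved the median difference over the 15134 genes from -0.0282 to -0.14 and gave 1415 genes more positive in HCC70 and 2119 in MDA-MB-231. Upper quartile scaling gave 1589 and 1510. A value with the offset is given beside a gene below where the offset ended a call or moved a difference by over 1.5 times, and beside a list where it turned or removed the lean of its counts.

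**Figure D2:**
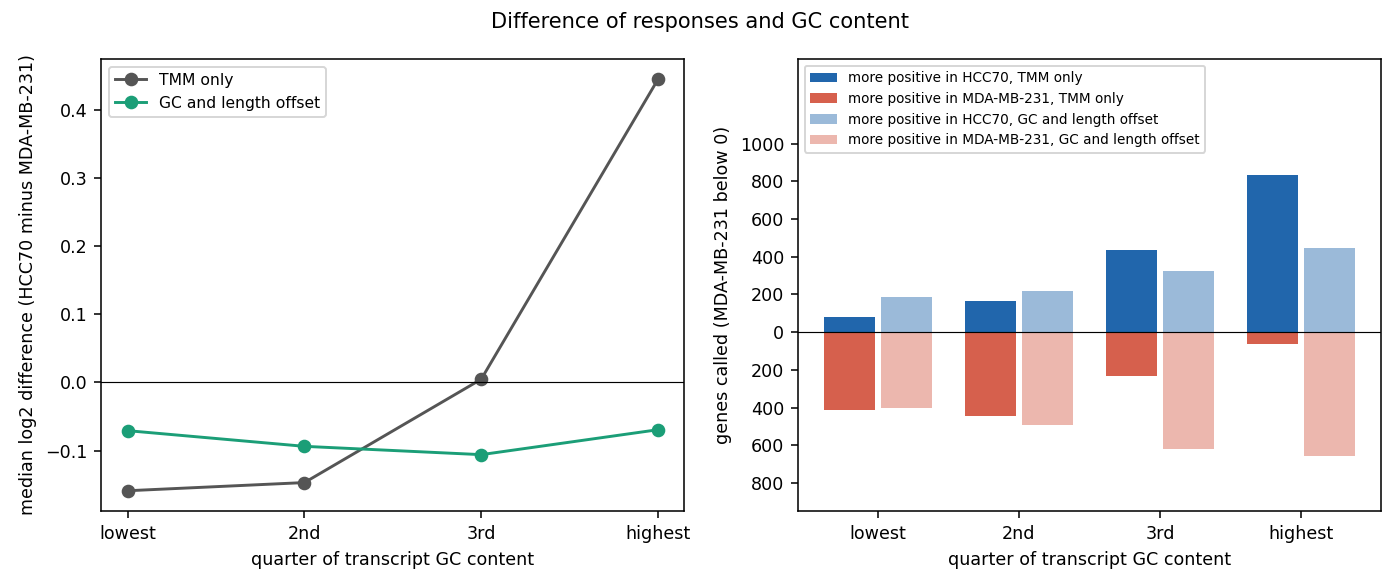
Left, the median difference of responses (log2, HCC70 minus MDA-MB-231) in 4 sets of 3558 genes ordered by GC content; right, the genes that passed in each set, with those more positive in MDA-MB-231 drawn below 0. Without the offset the median runs from -0.159 in the lowest set to 0.445 in the highest, and with the offset it stays between -0.0694 and -0.106.

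The receptor's own gene, NR3C1, was measured at 60.2, 53.4 and 56.2 CPM in HCC70 vehicle and 51.0, 53.8 and 51.4 CPM in HCC70 dexamethasone. In MDA-MB-231 it was at 117, 135 and 125 CPM in vehicle and 90.9, 86.5 and 89.4 CPM in dexamethasone. The HCC70 groups overlapped and the MDA-MB-231 dexamethasone libraries lay below all vehicle libraries. NR3C1 fell by 0.50 on the log2 scale in MDA-MB-231, and the difference was 0.38 ± 0.0917 (SE; adjusted p = 0.0195), which was lost under 5 of 25 alternative settings. Of 22 genes for the receptor, its chaperones and its coregulators, 4 differed, against 18.4% of all genes measured in both lines. The coactivator NCOA3 rose in MDA-MB-231 (log2 change 0.92) and stood at -0.07 in HCC70, and the ligand-dependent corepressor NRIP1 rose likewise (0.81 against 0.18).

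Most textbook receptor targets rose, and 16 of 26 responded more positively in MDA-MB-231. Of 31 listed targets 26 were measured in both lines: 18 rose and 2 fell in HCC70, and 22 rose and 1 fell in MDA-MB-231, where 3.59% and 9.09% of all genes measured in both lines rose. The difference passed for 17 (65.4%, against 18.4%), of which 16 were more positive in MDA-MB-231 and 1 in HCC70. The shares of all genes measured in both lines that apply to each list below are 18.4% for a difference, 10.5% toward HCC70 and 7.9% toward MDA-MB-231. The median difference was -0.902, against -0.0282 over all genes measured in both lines and -0.0147 over all genes tested, and 21 differed with the offset (20 toward MDA-MB-231).

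TSC22D3, which encodes the anti-inflammatory leucine zipper protein GILZ, was at 156, 147 and 152 CPM in HCC70 vehicle and 407, 415 and 406 CPM in dexamethasone. In MDA-MB-231 it went from 6.32, 5.71 and 5.04 CPM to 160, 165 and 169 CPM. The treated level in MDA-MB-231 thus lay close to the untreated level in HCC70. The rise was 2.7-fold in HCC70 and 28.9-fold in MDA-MB-231, a difference of -3.42 ± 0.103 (SE; adjusted p = 1.31e-10).

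PDK4, a kinase that shuts pyruvate out of the mitochondrial cycle, stood at 0.973, 0.801 and 0.945 CPM in HCC70 vehicle and 3.56, 3.66 and 3.43 CPM in dexamethasone. Its level in MDA-MB-231 moved from 2.60, 3.31 and 3.25 CPM to 112, 112 and 126 CPM. In both lines the treated and vehicle groups did not overlap, and the difference was -3.29 ± 0.146 (SE; adjusted p = 9.37e-09).

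FKBP5, a co-chaperone that restrains the receptor, was at 35.5, 36.2 and 34.0 CPM in HCC70 vehicle and 216, 220 and 219 CPM in dexamethasone. The MDA-MB-231 level changed from 50.1, 57.6 and 60.8 CPM to 1071, 1120 and 1165 CPM. Vehicle means were 35.2 CPM in HCC70 and 56.2 CPM in MDA-MB-231, and treated means were 218 and 1119 CPM. The rises were 6.2-fold and 19.9-fold, with a difference of -1.68 ± 0.0982 (SE; adjusted p = 1.13e-07). KLF9, a zinc finger repressor, rose 3.42-fold in HCC70 and 18.8-fold in MDA-MB-231. DUSP1, a phosphatase that switches off MAP kinases, rose 2.48-fold and 9.53-fold. CEBPB, a transcription factor of differentiation, rose 1.43-fold and 9.39-fold, and its rise in HCC70 did not pass with the offset (log2 change 0.16 against 0.52, adjusted p = 0.617); 11.8% of its exon bases overlap those of an antisense gene, and the library type does not separate strands.

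The clock repressor PER1 had the strongest rise among the listed targets in HCC70 after TFCP2L1. It went from 15.2, 16.7 and 18.1 CPM to 130, 117 and 120 CPM in HCC70, and from 16.3, 13.3 and 10.6 CPM to 154, 267 and 177 CPM in MDA-MB-231. The MDA-MB-231 library at 267 CPM is dexamethasone replicate 2, which stood apart. The difference of -1.02 ± 0.286 (SE; adjusted p = 0.0451) was -1.73 with the offset (adjusted p = 4.45e-10) and was lost under 11 of 25 settings. TFCP2L1, an epithelial transcription factor, rose 9.33-fold and 15.6-fold, with a difference of -0.74. BIRC3, an inhibitor of apoptosis, rose 4.27-fold and 10.3-fold. The glutamine synthetase gene GLUL rose 2.09-fold in MDA-MB-231 (difference -1.07, adjusted p = 6.93e-07), and its HCC70 groups overlapped at 2198 to 2364 and 2207 to 2326 CPM. SPSB1, a ubiquitin ligase adaptor, was the listed target that differed the other way, rising 1.24-fold in HCC70 and falling 1.34-fold in MDA-MB-231 (difference 0.74, 0.46 with the offset).

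**Figure D3:**
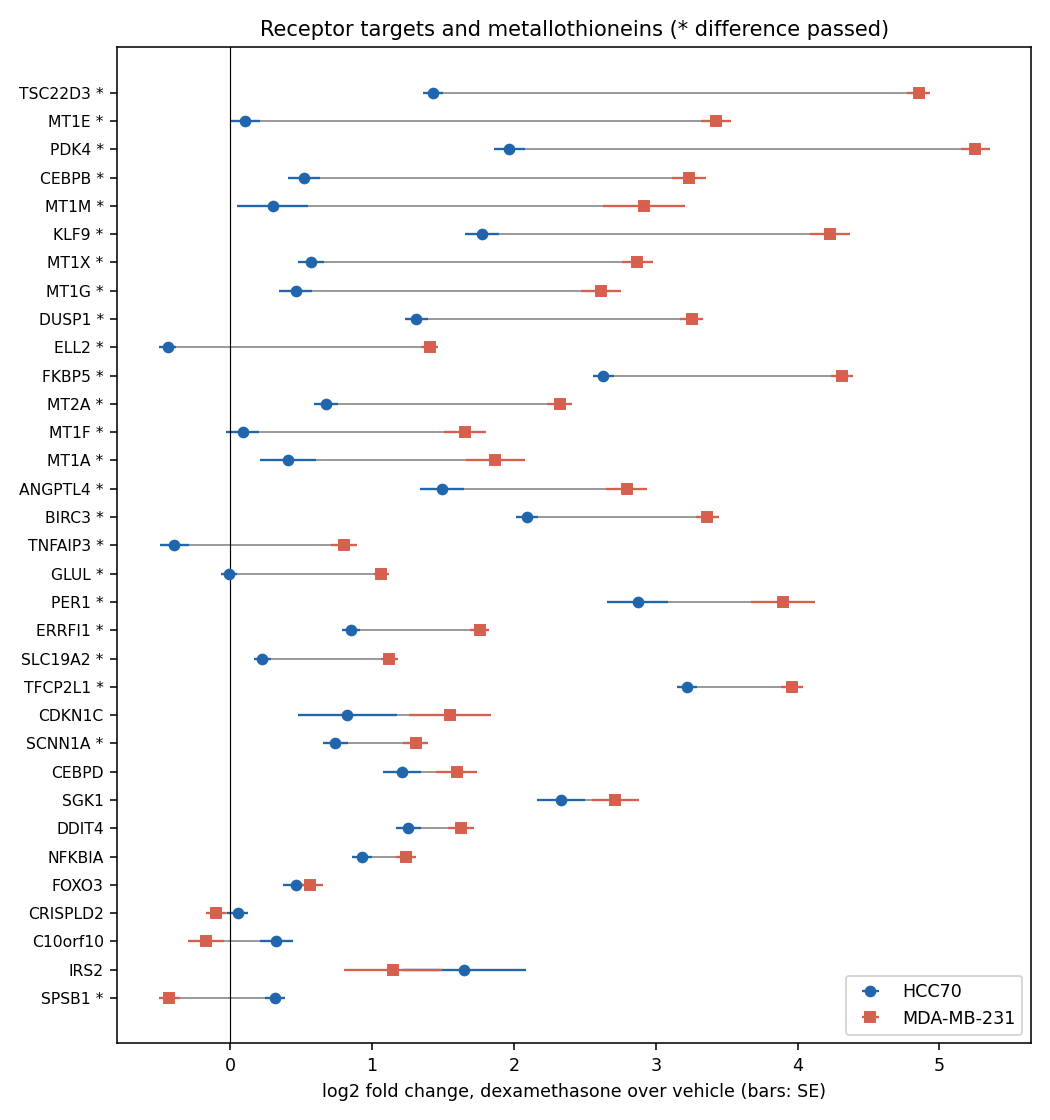
Log2 fold change of dexamethasone over vehicle with its SE for the 26 receptor targets and 7 metallothioneins measured in both lines, HCC70 as blue circles and MDA-MB-231 as red squares, ordered by the difference, with an asterisk where it passed. All 7 metallothioneins and 16 of the 17 receptor targets with an asterisk lie further to the right in MDA-MB-231.

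The metallothioneins, small proteins that bind zinc and copper, answered in MDA-MB-231 and little in HCC70. Of 9 listed genes 7 were measured in both lines; all 7 rose in MDA-MB-231, 3 rose in HCC70, and the difference passed for 7 with a median of -2.15. The genes are related in sequence, so the counting may have split reads between them, which was not tested. Promoter windows of the human reference (RefSeq, GRCh38.p14) hold the sequences of MT2A and MT1X, shown because both genes differed strongly and because metal response elements are the best-known control sites of this family. The 250 bases before each start are printed 5′ to 3′ on the strand of the gene, at chr16:56608334-56608583 (+) for MT2A and chr16:56682220-56682469 (+) for MT1X, with matches to TGCACNC or TGCGCNC on either strand in capitals.
MT2A: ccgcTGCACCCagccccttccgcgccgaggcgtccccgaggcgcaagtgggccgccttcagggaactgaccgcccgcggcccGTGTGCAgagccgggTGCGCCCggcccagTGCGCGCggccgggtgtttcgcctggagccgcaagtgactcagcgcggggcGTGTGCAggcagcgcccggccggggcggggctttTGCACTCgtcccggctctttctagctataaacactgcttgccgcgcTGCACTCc
MT1X: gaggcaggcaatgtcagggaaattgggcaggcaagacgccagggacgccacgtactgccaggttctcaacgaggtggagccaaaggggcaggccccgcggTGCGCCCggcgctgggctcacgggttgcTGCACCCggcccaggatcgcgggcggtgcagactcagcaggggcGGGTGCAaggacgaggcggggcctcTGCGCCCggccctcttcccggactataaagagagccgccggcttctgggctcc
MT2A holds 7 matches and MT1X 4; at least 1 is held by 24.3% of all promoters in the reference table and by 35.5% of the 5967 promoters of genes measured in both lines.

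MT2A stood at 22.6, 23.7 and 20.7 CPM in HCC70 vehicle and 32.8, 39.2 and 34.9 CPM in dexamethasone. In MDA-MB-231 it went from 49.2, 43.2 and 53.4 CPM to 243, 248 and 238 CPM. It rose in both lines, 1.6-fold and 5-fold, with a difference of -1.65 ± 0.12 (SE; adjusted p = 9.87e-07). MT1X went from 11.03, 11.07 and 10.69 CPM to 14.51, 16.03 and 18.17 CPM in HCC70, and from 1.02, 0.805 and 0.990 CPM to 6.96, 6.76 and 6.85 CPM in MDA-MB-231. Its treated level in MDA-MB-231 stayed below the vehicle level in HCC70, while the rise was 7.32-fold against 1.49-fold; 18.1% of its exon bases overlap another gene. MT1E went from 9.42, 10.7 and 8.10 CPM to 9.60, 11 and 9.78 CPM in HCC70, groups that overlap. In MDA-MB-231 MT1E went from 15.1, 13.6 and 16.8 CPM to 168, 159 and 161 CPM, a 10.8-fold rise, and its difference of -3.32 ± 0.141 (SE; adjusted p = 6.69e-09) was the largest of the family.

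SCNN1G, the gamma subunit of the epithelial sodium channel, had 0 counts in all 3 vehicle libraries of MDA-MB-231 and 5.21, 5.25 and 5.48 CPM in dexamethasone. In HCC70 it went from 3.26, 2.64 and 3.56 CPM to 8.62, 8.78 and 9.03 CPM. Against the limit that a count of 0 allows over the group (0.00829 CPM), it was at least 641-fold higher with dexamethasone in MDA-MB-231, against 2.79-fold in HCC70. This is at least 7.84 on the log2 scale in favour of MDA-MB-231.

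FGD4, an exchange factor for the small GTPase CDC42, went from 20.03, 19.98 and 19.4 CPM to 28.2, 28.5 and 28.2 CPM in HCC70. Its level in MDA-MB-231 moved from 1.77, 1.87 and 1.69 CPM to 39.8, 37.4 and 41.4 CPM, so that dexamethasone carried it from far below HCC70 to above it. The difference was -3.96 ± 0.0884 (SE; adjusted p = 9.49e-12). NPR3, the clearance receptor for natriuretic peptides, rose 1.45-fold in HCC70 and 15.2-fold in MDA-MB-231. EDN2, an endothelin peptide, rose 2.08-fold and 25.4-fold, and SGPP2, a phosphatase of sphingosine 1-phosphate, 2.46-fold and 26.3-fold.

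Other genes with large differences rose in MDA-MB-231 and did not pass in HCC70. ACPL2 (now PXYLP1), a phosphatase of proteoglycan assembly, rose 12.8-fold in MDA-MB-231 (log2 change 0.13 in HCC70, adjusted p = 0.44). C5orf62 (now SMIM3), a small membrane protein, rose 9.86-fold (-0.26 in HCC70, adjusted p = 0.099). CD109, a co-receptor that restrains TGF-beta signalling, rose 7.71-fold there, from 0.393, 0.320 and 0.455 CPM to 3.27, 2.96 and 2.76 CPM, while HCC70 held it at 156 to 168 CPM in vehicle and 169 to 175 CPM in dexamethasone. XKRX, a membrane protein, rose 12.6-fold (0.80 in HCC70, adjusted p = 0.066).

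A total of 141 genes moved in opposite directions in the 2 lines and differed (0.932%, against 0.554% of all genes tested): 113 rose in HCC70 and fell in MDA-MB-231, and 28 did the reverse. Of these, 74 and 15 differed by 2-fold or more. The 74 became 396 without both MDA-MB-231 libraries that stood apart, 129 without MDA-MB-231 dexamethasone replicate 2, 112 without MDA-MB-231 vehicle replicate 3, 36 with the replicate block and 35 to 46 without any 1 HCC70 library other than vehicle replicate 3. The count of 141 was 208 with the offset and 1139 without both MDA-MB-231 libraries that stood apart. Leaving out 1 library gave 60 (HCC70 vehicle replicate 1) to 254 (MDA-MB-231 dexamethasone replicate 2); it fell to 68 to 76 without the HCC70 vehicle replicate 2 or any HCC70 dexamethasone library, to 86 without MDA-MB-231 dexamethasone replicate 3, and rose to 244 without MDA-MB-231 vehicle replicate 3.

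ARTN, the growth factor artemin, was at 13.4, 12.9 and 13.0 CPM in HCC70 vehicle and 37.3, 35.6 and 33.6 CPM in dexamethasone. In MDA-MB-231 it was at 48.9, 35.9 and 28.3 CPM in vehicle and 6.69, 8.99 and 6.60 CPM in dexamethasone. The untreated level was higher in MDA-MB-231 and the treated level higher in HCC70, with no overlap within either line. The difference was 3.78 ± 0.252 (SE; adjusted p = 3.93e-06).

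WNT9A, a Wnt ligand, went from 22.0, 22.2 and 27.1 CPM to 46.5, 43.3 and 45.6 CPM in HCC70 and from 29.2, 23.2 and 19.5 CPM to 5.65, 8.54 and 6.30 CPM in MDA-MB-231. Its vehicle levels overlapped between the lines and its treated levels lay far apart, with a difference of 2.74 ± 0.236 (SE; adjusted p = 2.8e-05). ITPRIP, a protein that binds the inositol trisphosphate receptor, rose 2.52-fold in HCC70 and fell 2.44-fold in MDA-MB-231. EPHA2, an ephrin receptor kinase, rose 1.81-fold and fell 2.16-fold.

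The extracellular signalling inhibitor TSKU rose 1.87-fold and fell 2.21-fold. LFNG, which adds sugars to Notch, rose 2.21-fold and fell 1.92-fold, with a mean in HCC70 of 0.907 CPM in vehicle and 2.01 CPM in dexamethasone. PAK6, a kinase downstream of CDC42, rose 1.78-fold and fell 2.66-fold, with 44.1% of its exon bases shared with another gene. CITED4, a coactivator partner of CREB-binding protein, rose 1.92-fold and fell 2.08-fold; with the offset its difference shrank from 2.0 to 1.1 and neither line passed (adjusted p = 0.0616 and 0.109).

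In these genes MDA-MB-231 vehicle replicate 1 was the highest vehicle library and dexamethasone replicate 2 the highest treated library, for ARTN, WNT9A, ITPRIP, EPHA2, PAK6, TSKU and LFNG alike. The share of this library pattern in their differences was not tested. Every one of the 8 differences passed under all 25 settings. These include the fit without both libraries, in which 5391 genes differed against 2785, so passing there does not measure that share. The same order of MDA-MB-231 libraries held for JUN, FOSL2, CLDN4, ELF3, CX3CL1, IL11, DUSP8, SOX9 and VEGFA, described further below. FOS, HBEGF and F3 did not follow that order. The share of the library order in those differences was not tested either.

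The reverse pattern, a fall in HCC70 and a rise in MDA-MB-231, was led by S1PR1 and NEDD9. S1PR1, the sphingosine 1-phosphate receptor of endothelial and lymphoid cells, went from 6.98, 6.38 and 5.64 CPM to 4.05, 3.37 and 4.25 CPM in HCC70. The MDA-MB-231 level changed from 1.67, 1.53 and 1.71 CPM to 6.03, 5.48 and 6.07 CPM. Dexamethasone thus exchanged the order of the lines, with a difference of -2.55 ± 0.157 (SE; adjusted p = 1.86e-07). NEDD9, a scaffold of focal adhesions, went from 3.50, 3.62 and 3.22 CPM to 2.72, 2.37 and 2.32 CPM in HCC70 and from 69.9, 69.7 and 63.9 CPM to 217, 224 and 232 CPM in MDA-MB-231. The lines' levels were apart before treatment and further apart after it (difference -2.20 ± 0.103 SE, adjusted p = 1.31e-08).

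ELL2, an elongation factor of RNA polymerase II and a listed receptor target, fell 1.36-fold in HCC70 and rose 2.65-fold in MDA-MB-231. DNAJB4, a heat shock co-chaperone, fell 1.36-fold and rose 2.76-fold. PPAP2B (now PLPP3), a lipid phosphate phosphatase, fell 1.43-fold and rose 1.92-fold, and CHIC2, a palmitoylated vesicle protein, fell 1.37-fold and rose 1.7-fold. TGFB2, a TGF-beta ligand, fell 1.4-fold and rose 1.36-fold (26.6% exon overlap), and RSPH10B, a part of the ciliary radial spoke, fell 1.41-fold and rose 1.36-fold (18.4% exon overlap).

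**Figure D4:**
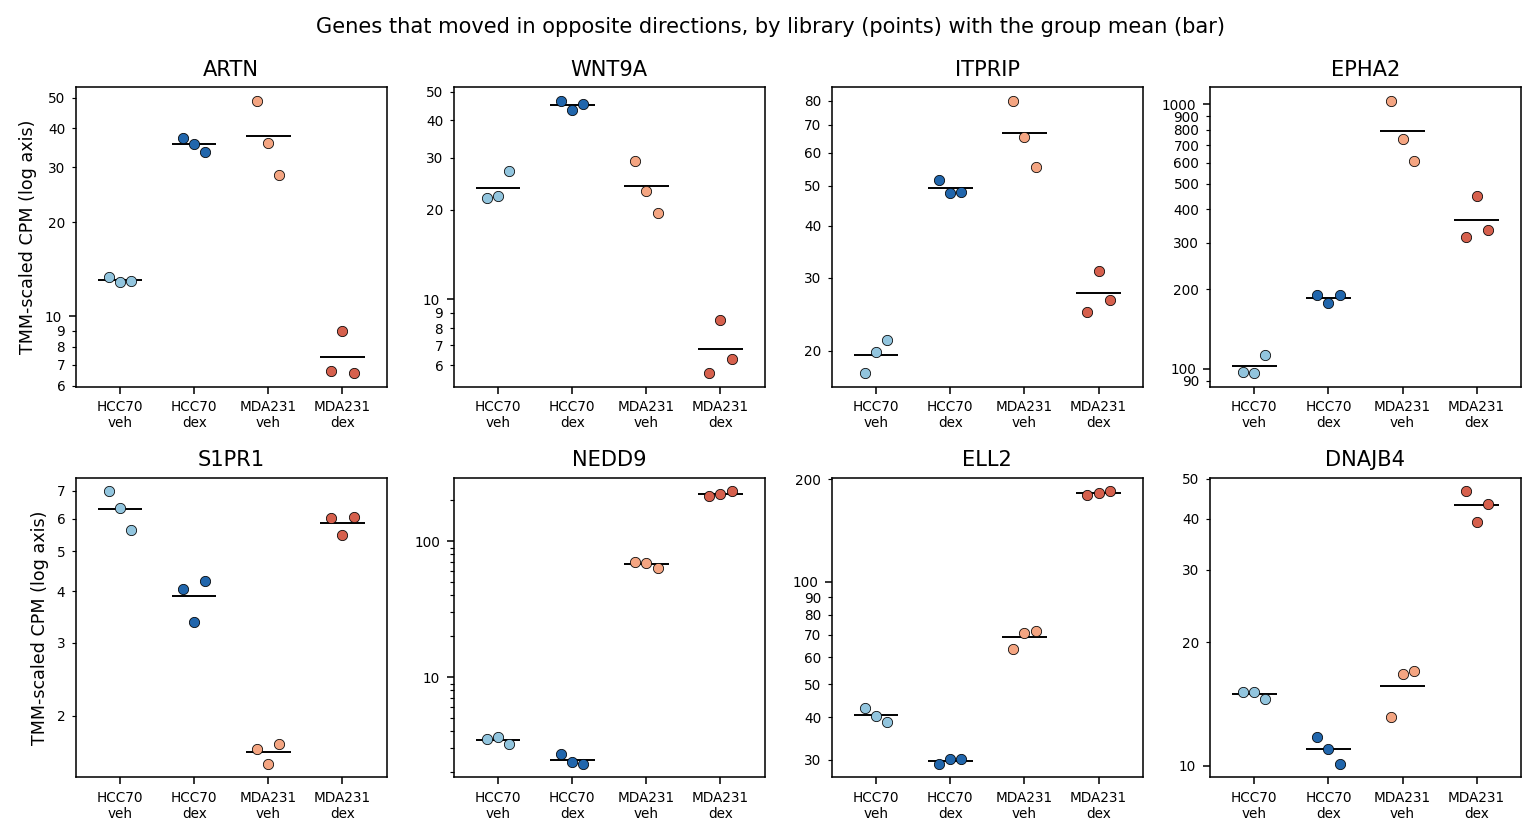
TMM-scaled CPM of 8 genes in each of the 12 libraries (points) with the group mean (bar), on a log axis. In the upper row treated libraries lie above vehicle in HCC70 and below it in MDA-MB-231; the lower row shows the reverse, with no overlap between treated and vehicle libraries of a line in any panel.

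AP-1 subunits and other immediate early genes, which respond within minutes to growth factors, were more positive in HCC70 wherever they differed. Of 15 measured in both lines, 8 differed, all toward HCC70; 5 rose in HCC70 and 8 fell in MDA-MB-231. The median difference was 0.911, and 0.334 with the offset, where 8 stayed on this side and 1 lay on the other. JUN, the core AP-1 subunit, was at 68.2, 75.2 and 70.2 CPM in HCC70 vehicle and 130, 123 and 114 CPM in dexamethasone. In MDA-MB-231 it was at 156, 121 and 114 CPM and then 47.0, 62.3 and 49.5 CPM. The groups did not overlap within either line, and the difference was 2.08 ± 0.175 (SE; adjusted p = 9.73e-06).

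FOS, the partner of JUN, went from 29.3, 28.9 and 26.2 CPM to 88.8, 78.9 and 81.7 CPM in HCC70. In MDA-MB-231 it was low throughout, at 2.14, 2.34 and 2.38 CPM and then 1.77, 2.07 and 1.86 CPM, and its log2 change of -0.27 there did not pass (adjusted p = 0.052). The difference was 1.83 ± 0.112 (SE; adjusted p = 1.78e-07). The FOS-related subunits FOSL2 and FOSL1 rose 1.73-fold and 1.33-fold in HCC70 and fell 2.22-fold and 2.35-fold in MDA-MB-231; the HCC70 rise of FOSL1 did not pass with the offset (log2 change 0.25 against 0.41, adjusted p = 0.276). IER3, a survival gene, fell in both lines, 1.57-fold and 3.8-fold, with 26.5% of its exon bases shared with an antisense gene.

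Among epidermal growth factor ligands and the feedback genes of the ERK kinase path 12 of 18 differed, 10 toward HCC70 and 2 toward MDA-MB-231, with a median of 0.513 (0.505 with the offset). In MDA-MB-231 11 of the 18 fell. The ligand HBEGF stood at 1.61, 2.12 and 1.61 CPM in HCC70 vehicle and 1.89, 1.85 and 1.85 CPM in dexamethasone, and at 41.4, 39.1 and 43.5 CPM and then 13.5, 12.1 and 12.3 CPM in MDA-MB-231. It overlapped in HCC70 and fell 3.28-fold in MDA-MB-231 (difference 1.78 ± 0.139 SE, adjusted p = 1.81e-06). TGFA, another ligand of the same receptor, rose 1.55-fold in HCC70 and fell 1.86-fold in MDA-MB-231. The ERK phosphatase DUSP4 fell 2.35-fold in MDA-MB-231 (log2 change 0.22 in HCC70, adjusted p = 0.34), and DUSP8 rose 1.76-fold and fell 1.82-fold with a difference of 1.69 (0.83 with the offset). The 2 exceptions were DUSP5, an ERK phosphatase of the nucleus, which fell 1.61-fold in HCC70, and the ligand AREG, which rose 1.92-fold in MDA-MB-231; both were singled out after their values were seen.

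The interleukin-6 family and the STAT3 path, named in the study's purpose, differed in 14 of 23 genes, 10 toward HCC70 and 4 toward MDA-MB-231, with a median of 0.526 (0.104 with the offset). The ligands IL11 and LIF fell in MDA-MB-231. IL11, a cytokine that signals through STAT3, was at 0.579, 0.963 and 0.713 CPM in HCC70 vehicle and 1.13, 0.937 and 0.999 CPM in dexamethasone, groups that overlap. In MDA-MB-231 it was at 29.3, 22.1 and 19.5 CPM in vehicle and 1.81, 1.87 and 1.45 CPM in dexamethasone, a 13.8-fold fall. The difference of 4.24 ± 0.277 (SE; adjusted p = 7.27e-07) was the largest positive one by the rule for named genes. In HCC70 the mean of IL11 was 0.752 CPM in vehicle and 1.02 CPM in dexamethasone, so it was included there through the treated group alone.

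The promoter window of IL11 is shown because of that difference and because it holds a match to the AP-1 element TGAGTCA, which reads TGACTCA on the other strand, in capitals at 96 bases before the start. It lies at chr19:55370464-55370713 (-) in GRCh38.p14 (RefSeq) and is printed on the strand of the gene.
IL11: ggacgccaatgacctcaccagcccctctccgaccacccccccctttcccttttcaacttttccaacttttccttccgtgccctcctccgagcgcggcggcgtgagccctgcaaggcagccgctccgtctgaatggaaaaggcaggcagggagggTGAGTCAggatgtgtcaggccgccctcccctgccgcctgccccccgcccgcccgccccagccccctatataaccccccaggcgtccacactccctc
A match was found in 4.36% of all 22114 promoters of the table, in 2.46% of the 5967 promoters of genes measured in both lines, in 9 of 147 of the genes more positive in HCC70 by 2-fold or more (6.12%) and in 2 of 51 of those more positive in MDA-MB-231 (3.92%). The metal response element was found in 45 of 147 (30.6%) and 20 of 51 (39.2%), against 35.5% of the 5967 promoters of genes measured in both lines. MT2A, which differed toward MDA-MB-231, also holds an AP-1 match, TGACTCA at 104 bases before its start, printed above in lower case. Only gene symbols with exactly 1 window were searched, which gave the 5967 promoters out of 14934 genes with a unique symbol. Of the 15 early genes measured in both lines 8 were searched, and 0 of 8 held an AP-1 match. Of the 26 receptor targets 13 were searched, and 0 of 13 held a match. A match is a description of letters and not a bound site.

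LIF, a related cytokine, went from 2.60, 3.01 and 2.72 CPM to 3.602, 3.146 and 3.452 CPM in HCC70 (log2 change 0.29, adjusted p = 0.18), and fell 2.04-fold in MDA-MB-231. LIFR, the receptor of that ligand, rose 2.5-fold in MDA-MB-231, from 58.9, 73.2 and 69.2 CPM to 158, 165 and 180 CPM, and overlapped in HCC70 (difference -1.35, adjusted p = 1.96e-06). IL6R rose in both lines, 4.34-fold in HCC70 and 2.25-fold in MDA-MB-231 (difference 0.95, adjusted p = 0.00256). SOCS3, the feedback inhibitor of STAT3, fell 1.76-fold in MDA-MB-231 (difference 1.27, 0.82 with the offset). STAT3 itself stayed between 184 and 196 CPM in HCC70 and between 127 and 141 CPM in MDA-MB-231, with groups that overlap in both lines and a difference of 0.03 (95% interval -0.15 to 0.20); the sign of that value turned under 6 settings.

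NF-kB subunits and regulators differed in 12 of 23 genes, 11 toward HCC70 and 1 toward MDA-MB-231, with 10 of 23 falling in MDA-MB-231. The median of 0.376 was 0.0604 with the offset, where 10 differed (7 and 3). TNFAIP2, a target of tumour necrosis factor, fell 2.75-fold in MDA-MB-231 (difference 1.37, 0.68 with the offset), and NFKBIE, an inhibitor of NF-kB, fell 2.35-fold (1.18, 0.68 with the offset). TRAF1, a signalling adaptor, fell 2.15-fold. Within this list the receptor TNFRSF1A was the 1 exception, rising 1.56-fold in MDA-MB-231, and was singled out after its values were seen. TNFAIP3, a brake on NF-kB that is counted with the receptor targets, also went toward MDA-MB-231. It fell 1.31-fold in HCC70 and rose 1.74-fold in MDA-MB-231.

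Of 10 chemokine and cytokine genes 6 differed, 4 toward HCC70 and 2 toward MDA-MB-231. CX3CL1, a membrane-bound chemokine, was at 109, 110 and 120 CPM in HCC70 vehicle and 176, 168 and 166 CPM in dexamethasone. In MDA-MB-231 it went from 6.72, 5.52 and 4.19 CPM to 0.773, 1.01 and 0.859 CPM. It rose in one line and fell 6.22-fold in the other, with a difference of 3.23 ± 0.2 (SE; adjusted p = 6.93e-07). CXCL2, a neutrophil chemokine, rose 5.05-fold in MDA-MB-231 (log2 change 0.54 in HCC70, adjusted p = 0.13). Its mean in MDA-MB-231 was 0.591 CPM in vehicle and 2.99 CPM in dexamethasone. TNFSF10, the death ligand TRAIL, fell in both lines, 1.28-fold and 2.62-fold. Of 30 interferon-stimulated genes 7 differed (4 and 3), a share of 23.3% that lies near the 18.4% of all genes measured in both lines. Among them were IFIT2, which fell 1.3-fold and 2.32-fold, and SP110, a nuclear body protein, which rose 2.83-fold in MDA-MB-231 (20.9% exon overlap).

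Keratins and epithelial junction genes differed in 15 of 27, 12 toward HCC70 and 3 toward MDA-MB-231, with a median of 0.363 (0.246 with the offset). In HCC70 8 rose and 0 fell, while in MDA-MB-231 6 rose and 11 fell. CLDN4, a tight junction claudin, went from 827, 835 and 911 CPM to 1200, 1147 and 1164 CPM in HCC70 and from 292, 248 and 215 CPM to 81.3, 106 and 87.7 CPM in MDA-MB-231. No groups overlapped, and the difference was 1.91 ± 0.155 (SE; adjusted p = 3.77e-06). The keratins KRT15 and KRT19 rose 1.79-fold and 1.64-fold in HCC70 and fell 1.6-fold and 1.22-fold in MDA-MB-231; the difference of KRT19 was 1.00, and 0.50 with the offset, where its fall in MDA-MB-231 did not pass (log2 change -0.0055, adjusted p = 0.983).

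ELF3, an epithelial transcription factor, was at 503 to 517 CPM in HCC70 vehicle and 598 to 663 CPM in dexamethasone (log2 change 0.31, adjusted p = 0.21). Its level in MDA-MB-231 moved from 9.15, 7.69 and 5.58 CPM to 1.141, 1.203 and 1.177 CPM, a 6.37-fold fall from an already low level. The difference was 2.98 ± 0.19 (SE; adjusted p = 6.93e-07), and 18.5% of its exon bases overlap an antisense gene. SOX9, a factor of progenitor cells, fell 4.79-fold in MDA-MB-231, from 130, 106 and 89.3 CPM to 21.0, 25.9 and 21.0 CPM, with a log2 change of 0.20 in HCC70 (adjusted p = 0.39). Among 15 Kruppel-like and SOX factors 9 differed (6 and 3); KLF7 rose 4.07-fold and KLF13 3.1-fold in MDA-MB-231, against log2 changes of -0.03 (adjusted p = 0.87) and 0.36 (adjusted p = 0.011; 0.17 with the offset, adjusted p = 0.116) in HCC70. PRSS22, an epithelial serine protease, fell 4.82-fold in MDA-MB-231 (log2 change 0.14 in HCC70, adjusted p = 0.59).

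Of 11 mesenchymal genes and switch regulators 5 differed, 2 toward HCC70 and 3 toward MDA-MB-231. Both toward HCC70, LOXL2 and TNC, did not pass with the offset (adjusted p = 0.0847 and 0.344). The epithelial gene repressor SNAI2 rose in both lines, from 5.71, 5.31 and 5.65 CPM to 8.68, 8.72 and 8.40 CPM in HCC70 and from 24.5, 25.5 and 26.8 CPM to 83.1, 71.1 and 81.9 CPM in MDA-MB-231. The rise was larger in MDA-MB-231 by 0.99 ± 0.0979 on the log2 scale (SE; adjusted p = 1.93e-05). Genes of the matrix, its proteases and the plasminogen system differed in 16 of 28, 14 toward HCC70 and 2 toward MDA-MB-231 (median 0.507, 0.214 with the offset). F3, the tissue factor that starts clotting, went from 14.95, 14.22 and 14.85 CPM to 24.2, 24.9 and 24.1 CPM in HCC70 and from 406, 418 and 456 CPM to 222, 206 and 214 CPM in MDA-MB-231 (difference 1.73 ± 0.0838 SE, adjusted p = 1.98e-08). ADAMTS1, a matrix protease, fell in both lines, 1.91-fold and 4.57-fold, and PLAUR, the urokinase receptor, fell 2.11-fold in MDA-MB-231 with overlapping groups in HCC70.

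Growth factors of vessels and nerves and their receptors differed in 11 of 20, 9 toward HCC70 and 2 toward MDA-MB-231 (median 0.517, 0.046 with the offset). VEGFA, the main angiogenic factor, was at 513, 474 and 529 CPM in HCC70 vehicle and 694, 636 and 649 CPM in dexamethasone. The MDA-MB-231 level changed from 584, 559 and 573 CPM to 233, 269 and 235 CPM. Similar vehicle levels were thus moved apart (difference 1.60 ± 0.097 SE, adjusted p = 1.73e-07). UNC5B, a netrin receptor, rose 3.7-fold in HCC70 and stood near 1 CPM in MDA-MB-231, where its groups overlapped (difference 2.45, adjusted p = 0.000415).

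In glucose and insulin genes 9 of 30 differed, 7 toward HCC70 and 2 toward MDA-MB-231; with the offset 13 differed, 7 and 6, and the median moved from 0.14 to -0.0354. HK2, the first enzyme of glycolysis, rose 1.53-fold in HCC70 and fell 1.86-fold in MDA-MB-231. TXNIP, a brake on glucose uptake, did the reverse, falling 1.25-fold and rising 1.87-fold (difference -1.22, adjusted p = 1.81e-06). FOXO1, a transcription factor that insulin restrains, rose 3.64-fold in MDA-MB-231 (log2 change 0.14 in HCC70, adjusted p = 0.33). In cholesterol and fatty acid metabolism 12 of 26 differed (7 and 5, turning to 4 and 6 with the offset). The lipid droplet protein gene PLIN2 rose 2.5-fold in MDA-MB-231 (log2 change 0.27 in HCC70, adjusted p = 0.065), and the endothelial lipase gene LIPG fell in both lines, 1.37-fold and 4.62-fold.

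Of 28 cell cycle genes 9 differed (4 toward HCC70 and 5 toward MDA-MB-231; 15 without MDA-MB-231 vehicle replicate 3). CDKN1A, the cyclin kinase inhibitor p21, rose 1.26-fold in HCC70 and 3.51-fold in MDA-MB-231 (difference -1.48, adjusted p = 4.54e-07). The HCC70 rise of CDKN1A did not pass with the offset (log2 change 0.20 against 0.33, adjusted p = 0.137). CCND1, the cyclin that starts the cycle, rose 1.39-fold and fell 1.57-fold (difference 1.13, adjusted p = 4.15e-07; 10.3% exon overlap). Among 23 apoptosis genes 7 differed (5 and 2; 11 without MDA-MB-231 vehicle replicate 3), and with the offset the lean turned to 3 and 5. CFLAR, an inhibitor of death receptor signalling, rose 1.17-fold and 2.35-fold, and TNFRSF10B, a receptor of TRAIL, rose 1.27-fold and fell 1.58-fold. BBC3, a death activator, had a difference of 0.98 (adjusted p = 0.0131) that was 0.09 with the offset (adjusted p = 0.825).

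Of 25 TGF-beta and BMP genes 8 differed (4 and 4). The inhibitor SMAD7 fell 2.52-fold in MDA-MB-231 (difference 1.32, 0.85 with the offset), and the receptor TGFBR2 rose 1.41-fold in HCC70 and 2.15-fold in MDA-MB-231. Of 17 clock genes 8 differed (5 and 3, turning to 3 and 4 with the offset): NFIL3, a repressor of clock output, rose 2.09-fold in MDA-MB-231, and DBP, its activating counterpart, fell 2.44-fold (difference 1.09, 0.64 with the offset). Of 20 genes of sodium transport, cyclic AMP and peptide hormones 10 differed (5 and 5), and the cyclic AMP phosphodiesterase PDE4B fell in both lines, 2.87-fold and 8.67-fold. Of 18 YAP and TEAD targets 6 differed (4 and 2, turning to 4 and 5 with the offset), and FJX1, a Golgi kinase, rose 3.59-fold in HCC70 with overlapping groups in MDA-MB-231 (difference 1.86, 1.17 with the offset). In HCC70 the mean of FJX1 was 0.633 CPM in vehicle and 2.28 CPM in dexamethasone. Of 27 heat shock and unfolded protein genes 8 differed (7 and 1). The stress kinase-like gene TRIB1 rose 1.37-fold in HCC70 and fell 1.32-fold in MDA-MB-231.

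**Figure D5:**
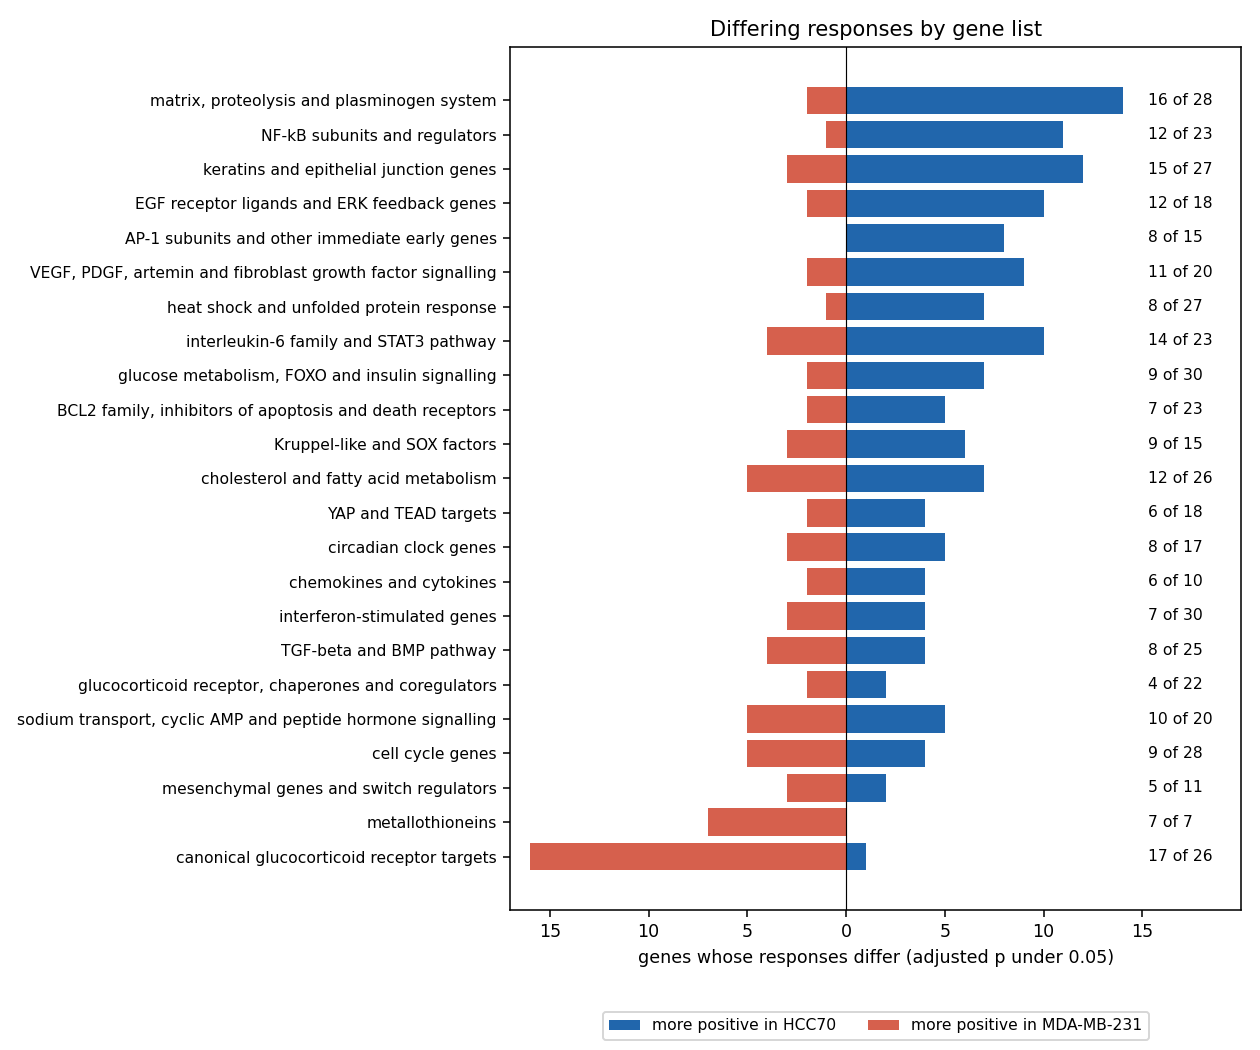
Genes of each of the 23 lists whose responses differed, with those more positive in HCC70 to the right and in MDA-MB-231 to the left, and at the right the number that differed of those measured in both lines. The receptor targets (17 of 26) and metallothioneins (7 of 7) lean to MDA-MB-231, and the early genes (8 of 15) and matrix genes (16 of 28) to HCC70.

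Some genes responded by a like amount in both lines. MYC, singled out after its values were seen, went from 47.7, 55.2 and 48.9 CPM to 104, 100 and 96.8 CPM in HCC70. In MDA-MB-231 it went from 81.8, 72.3 and 69.4 CPM to 146, 155 and 143 CPM. Its rise was 1.98-fold and 1.99-fold, and the 95% interval of the difference ran from -0.23 to 0.22. SYBU, a linker of vesicles to microtubules, rose 2.87-fold and 2.66-fold (interval -0.10 to 0.32). FRMD3, a membrane skeleton protein, rose 2.04-fold and 2.19-fold (-0.36 to 0.17). SGK1, the serum and glucocorticoid kinase, rose 5.04-fold and 6.57-fold, and was also singled out after its values were seen. Its difference did not pass, but the interval of -0.88 to 0.12 is too wide to call the responses alike. The other 4 of the 6 most alike responses by the rule for named genes differed with the offset, each toward MDA-MB-231: SP6 by -0.59 (adjusted p = 5.15e-05), RP1-130H16.18 by -0.48 (adjusted p = 0.000268; 97.9% exon overlap), ZFP36L2 by -0.42 (adjusted p = 0.0347) and ADRA1B by -0.74 (adjusted p = 0.0467). Without the offset their rises were 2.46-fold and 2.55-fold, 2.01-fold and 2.02-fold, 2.07-fold and 2.37-fold, and 3.62-fold and 3.58-fold. These intervals leave room for differences in the responses.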

How the data were processed

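RNA of 12 libraries from HCC70 and MDA-MB-231 was measured by non-stranded polyA RNA-seq with 50 bp paired reads from 250 ng of RNA, per the labels' protocols. The deposited table holds raw read counts per gene; per the submitters' processing notes the build was hg19 and the tools named are bedtools, Cufflinks 1.3.0 and TopHat 1.4.1. Which tool made the counts is not given in the sources used here. All 12 columns were matched to libraries by name; 11496 of 51838 genes had no count. Totals were 106345287 to 123218973.

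In edgeR 4.0.16 (R 4.3.3) counts were TMM-scaled and passed through filterByExpr at a minimum count of 10, and 28141 genes were fitted with 1 mean per group over all 12 libraries (quasi-likelihood, robust). The difference of responses and each line's response were tested two-sided with Benjamini-Hochberg adjustment over all genes. Intervals are 95%. Folds against a group at 0 use 3 counts over the group. GC content, length and exon overlap came from an annotation on another build than hg19, so no gene coordinates are given except for RefSeq promoter windows. Promoter windows were searched for the metal and AP-1 elements only. Scripts were tested on simulated data.

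Named genes are the 12 largest differences per direction, 8 per pattern of opposite change, up to 5 per list, the 6 most alike of 38 responses of 2-fold or more in both lines, and NR3C1, STAT3, FKBP5, TSC22D3 and PER1; not all are printed. The genes, the 23 lists and the tests were chosen with earlier results of these data known, so they are no independent evidence. Alternatives were other scalings (library size, upper quartile, DESeq2 1.42.0 size factors), filters, the DESeq2 Wald test, limma 3.58.1 voom with and without group weights, no robust fit, the replicate block, the GC and length offset (splines with 5 and 4 degrees of freedom), a 5 CPM rule for genes, and leaving out libraries. Some genes counted among the totals are not reported here by name.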

Additional observations from a re-analysis of the deposited data

Results flagged for a closer look

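The responses of the 2 lines differed in 2785 genes by the test of the difference itself, so the contrast as a whole is listed here. So are the genes that passed in both lines with opposite signs; values are log2 differences, HCC70 minus MDA-MB-231. Among genes that rose in HCC70 and fell in MDA-MB-231 these were 3.78 for ARTN, 2.74 for WNT9A, 2.62 for ITPRIP, 2.24 for PAK6, 2.09 for LFNG, 2.05 for TSKU, 2.0 for CITED4 and 1.97 for EPHA2. Among genes that fell in HCC70 and rose in MDA-MB-231 they were -2.55 for S1PR1, -2.20 for NEDD9, -1.91 for DNAJB4, -1.85 for ELL2, -1.46 for PPAP2B, -1.22 for CHIC2, -0.94 for RSPH10B and -0.93 for TGFB2.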

How the results depend on the processing

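The DESeq2 Wald test gave 4331 differing genes, 2533 more positive in HCC70 and 1798 in MDA-MB-231, with 1305 changed in HCC70 and 238 in opposite directions. Group weights in voom gave 2405 more positive in HCC70, 2231 changed in HCC70 and 283 opposite. Without both MDA-MB-231 libraries that stood apart these were 5391 differing, 3083, 2308, 3216 changed in HCC70, 4752 changed in MDA-MB-231 and 1139 opposite. The GC and length offset gave 2233 more positive in MDA-MB-231 and 1557 changed in HCC70, the 5 CPM filter 2201 and library size alone 2119 more positive in MDA-MB-231. The cause of these shifts was not tested.

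Same-numbered libraries did not deviate together (correlations -0.1, 0.0441 and -0.0122 in HCC70 and -0.419, -0.207 and 0.187 in MDA-MB-231). With 3 libraries per group these correlations cannot show whether same-numbered libraries were paired, which the labels do not state. With the replicate block 1197 genes differed, 686 more positive in HCC70 and 511 in MDA-MB-231, with 371 changed in HCC70, 1830 in MDA-MB-231 and 55 opposite; with the offset and the replicate block 970 were more positive in HCC70.

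Leaving out 1 library gave 1329 to 5325 differing genes, 775 to 2990 more positive in HCC70, 554 to 2335 in MDA-MB-231, 408 to 1407 changed in HCC70, 1759 to 5140 changed in MDA-MB-231 and 60 to 254 opposite. For the difference, libraries whose absence moved the count by over 1.5 times were HCC70 dexamethasone 1 (1487), 2 (1750) and 3 (1581), HCC70 vehicle 1 (1329) and 2 (1567), MDA-MB-231 dexamethasone 1 (1478), 2 (5325) and 3 (1417) and MDA-MB-231 vehicle 3 (4905). For differences of 2-fold or more, 537 became 1099 without MDA-MB-231 dexamethasone 2 and 996 without vehicle 3.

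Of 143 named genes 136 passed and 114 passed under all 25 settings. The difference of STAT3 turned from 0.0255 to -0.111 with the offset (-0.111 with the block too), -0.0855 with library size alone, -0.0113 with upper quartile scaling, -0.0275 without MDA-MB-231 dexamethasone 2 and -0.00864 without MDA-MB-231 vehicle 2; over all single libraries left out it ran from -0.0275 to 0.0608.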
